A study of Homo sapiens with 40 samples.

Results

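The SMAD family is the set of intracellular proteins that carry signals from receptors of the TGFβ superfamily to the nucleus. The 8 human genes SMAD1, SMAD2, SMAD3, SMAD4, SMAD5, SMAD6, SMAD7 and SMAD9 were chosen by symbol, out of 60708 genes in the count tables. They were followed through 24 RNA-seq libraries in 8 groups of 3.

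Receptor-regulated SMADs are phosphorylated by type I receptors, SMAD2 and SMAD3 mainly by those for TGFβ and activin, and SMAD1, SMAD5 and SMAD9 mainly by those for BMPs. Phosphorylated receptor-regulated SMADs join SMAD4, the common partner, and the complexes bind DNA and change transcription. SMAD6 and SMAD7 are inhibitory SMADs that act back on receptors and on other SMADs, and in mammary epithelium the TGFβ branch is known for cell cycle arrest and for epithelial-mesenchymal transition (EMT).

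MI-spheres were grown from MCF-10A, an immortalized mammary epithelial cell line, and MII-spheres from MCF-10AneoT, its derivative transformed with HRAS. Both lines were kept in 3D on ultra-low attachment plates, without stimulation (Ctrl) or with 2.5 ng/ml TGFβ1 for 16 h (TGFβ). MDA-MB-231, a line from a breast cancer without hormone receptors or HER2 amplification, was grown as monolayers, either parental and untreated (WT) or after CRISPR/Cas9 editing of SNAI2, the gene of SLUG (SLUG KO). The remaining groups were MDA-MB-231 cells transfected with siRNAs against SMAD2, SMAD3 and SMAD4 together (siSMAD2/3/4) or with scrambled siRNA (Csi). The KO cells were expanded from single-cell colonies, so effects of cloning and of the KO cannot be told apart. All groups are cell lines, and the labels call the libraries biological replicates.

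Between 14124688 and 38406952 fragments per library were counted on genes, and the fewest on any SMAD gene was 17, for SMAD9 in SLUG KO replicate 2. Replicates correlated across genes in log2 CPM at 0.996 or more (Pearson's r) in 7 groups, but between 0.954 and 0.996 in WT, where replicate 2 stood apart. Values without that library are therefore also given for the called SMAD and pathway genes named in comparisons with WT. HRAS was at 39.9 to 41.6 CPM in unstimulated MI-spheres and at 219 to 226 CPM in unstimulated MII-spheres. Both sphere lines had the epithelial cadherin CDH1 at a mean of 526 CPM or more, whereas WT cells had 1.24 CPM of CDH1 and 790 CPM of the mesenchymal filament gene VIM. Of the other mesenchymal markers, ZEB1 was at 95.4 CPM in WT and at group means of at most 3.21 CPM in spheres. CDH2 went the other way, at 1.18 CPM in WT and at group means from 1.55 to 10.5 CPM in spheres. The leukocyte marker PTPRC had group means of at most 0.394 CPM and CD68 of at most 0.0931 CPM. Summed over 6 markers of leukocytes, endothelium and fibroblasts, levels ran from 42.9 to 45.3 CPM in unstimulated and from 27.8 to 29.6 CPM in stimulated MI-spheres, and from 116 to 118 and from 97.03 to 109.5 CPM in MII-spheres. The sums ran from 15.51 to 25.96 CPM in WT, 14.11 to 15.69 CPM in SLUG KO, 41.1 to 42.75 CPM in Csi and 37.6 to 38.63 CPM after siSMAD2/3/4. The endothelial gene PECAM1 was at 96.7 CPM in stimulated MII-spheres, CDH5 at 22.3 and 2.12 CPM in unstimulated and stimulated MI-spheres, and the fibroblast gene DCN at 11.7 and 15.9 CPM there. PDGFRB, a further fibroblast marker, was at 33.4 CPM in Csi and 14.9 CPM in WT, and at group means of at most 0.727 CPM in spheres. The part of these markers in the SMAD results was not tested. In such bulk libraries, fewer cells of a type and less RNA per cell cannot be told apart.

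CPM are counts scaled to library size, with TMM factors computed within each experiment. Fold-changes came from edgeR's quasi-likelihood test, fitted across all genes on the libraries compared, with p-values adjusted by Benjamini-Hochberg over every gene in the fit, and a gene was called at an adjusted p under 0.05. All 8 SMAD genes passed the filter on low counts in every comparison.

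Of the family, SMAD6 and SMAD3 lie on the same strand of chromosome 15, with 281 kb between them (GRCh38). They were the members that fell with TGFβ in both sphere lines, so the sequences before their start sites are shown. RefSeq lists 1 promoter window for SMAD6 and 5 for SMAD3, each from 250 bases before to 50 bases after a transcript start (GRCh38.p14, plus strand). The windows were searched on both strands for the palindromic SMAD-binding element GTCTAGAC and for the shorter SMAD box CAGAC, neither of which overlapped the other here. The GC-rich element GGCGCC and the AP-1 site TGACTCA were searched for as well and are not marked. Capitals mark matches of GTCTAGAC and CAGAC, and GTCTG is CAGAC on the opposite strand. The 250 bases before the SMAD6 start are chr15:66701986-66702235, those before the first SMAD3 start are chr15:67065352-67065601, and those before the last are chr15:67166281-67166530.
SMAD6: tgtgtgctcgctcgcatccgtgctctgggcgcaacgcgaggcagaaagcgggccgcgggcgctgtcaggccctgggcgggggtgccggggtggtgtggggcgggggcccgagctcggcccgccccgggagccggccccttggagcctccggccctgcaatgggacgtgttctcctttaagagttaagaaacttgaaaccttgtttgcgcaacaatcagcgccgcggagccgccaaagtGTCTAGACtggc
SMAD3 first start: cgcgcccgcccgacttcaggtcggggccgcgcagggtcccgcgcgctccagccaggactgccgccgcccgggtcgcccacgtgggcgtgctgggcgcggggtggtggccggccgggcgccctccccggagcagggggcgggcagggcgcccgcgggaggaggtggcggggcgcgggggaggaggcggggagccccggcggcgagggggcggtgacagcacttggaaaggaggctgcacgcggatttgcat
SMAD3 last start: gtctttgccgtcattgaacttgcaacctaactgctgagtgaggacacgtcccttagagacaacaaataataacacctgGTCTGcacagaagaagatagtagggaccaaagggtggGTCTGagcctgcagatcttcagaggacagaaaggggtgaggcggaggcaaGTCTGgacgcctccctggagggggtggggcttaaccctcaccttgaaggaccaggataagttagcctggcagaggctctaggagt

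The SMAD6 window held 1 GTCTAGAC, beginning 12 bases before the start. This palindrome was found in 0.202% of the 35114 promoter windows searched and in no other window of the 8 SMAD genes. CAGAC was found in 45.3% of windows, and the last SMAD3 window held 4, of which 3 are in the sequence shown and the other begins 9 bases after the start. The first SMAD3 window had its single CAGAC 7 bases after the start, outside the sequence shown, and 80.3% G and C. These matches are letters in a window, and no binding was measured here.

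TGFβ changed the family in MI-spheres mainly by lowering SMAD3 and SMAD6. Of the 8 genes, 1 was higher and 3 were lower, where 56.0% of the 16863 genes tested were called in either direction, 28.7% higher and 27.4% lower. CPM did not overlap between the groups for 6 of the 8, against 62.0% of genes tested. SMAD3, the receptor-regulated SMAD that binds DNA directly in TGFβ signaling, was at 148, 144 and 134 CPM in unstimulated and at 61.6, 62.4 and 55.7 CPM in stimulated MI-spheres. All stimulated libraries lay below all unstimulated ones, and the log2 fold-change was -1.27 (SE 0.060, adjusted p = 2.24e-13). SMAD6, the inhibitor best known for acting on the BMP branch, was at 17.2, 16.2 and 16.1 CPM without and at 5.41, 5.21 and 5.38 CPM with TGFβ. That is 31.8% of the unstimulated level, again without overlap (log2 fold-change -1.65, SE 0.10, adjusted p = 2.37e-11). 

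In MII-spheres both genes fell as well, but by less. Of the 8 genes, 2 were higher and 2 were lower, against a background of 57.6% of 16396 genes called, 29.9% higher and 27.6% lower. The groups did not overlap for 5 of the 8, against 61.6%. SMAD3 was at 172, 189 and 178 CPM in unstimulated and at 105.84, 112.03 and 107.59 CPM in stimulated MII-spheres. The groups were separate, with a log2 fold-change of -0.77 (SE 0.043, adjusted p = 1.47e-21). SMAD6 was at 24.3, 23.5 and 21.7 CPM without and at 15.8, 14.4 and 18.4 CPM with TGFβ. Here too no stimulated library reached the lowest unstimulated one (log2 fold-change -0.55, SE 0.088, adjusted p = 4.76e-07).

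**Figure D1:**
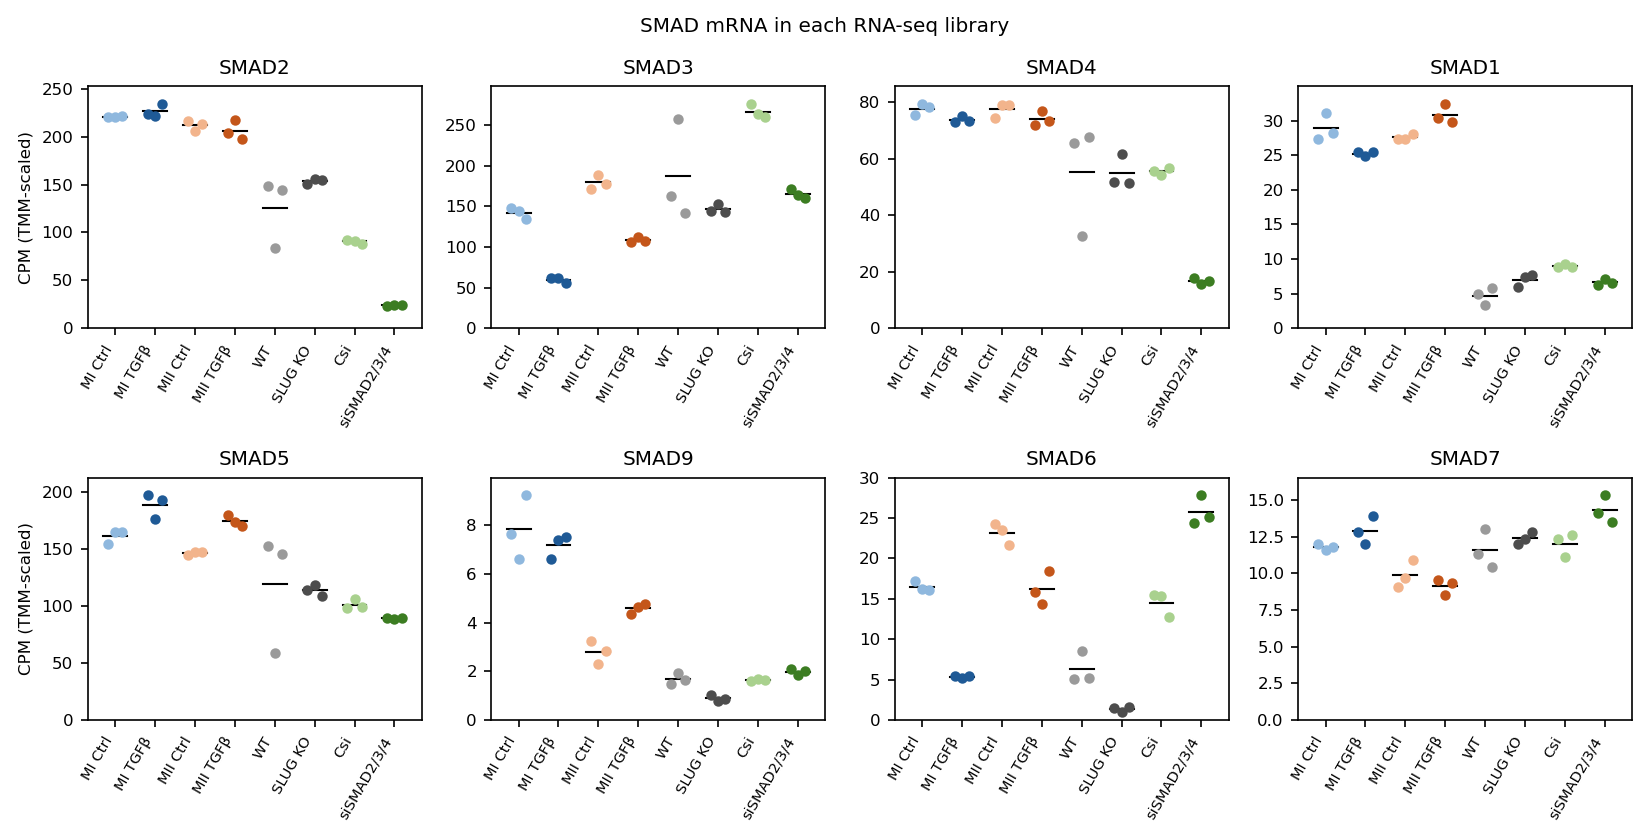
TMM-scaled CPM (y axis, linear, from 0) of each SMAD gene in the 3 libraries (points) of each of the 8 groups (x axis), with the group mean as a black line. SMAD3 and SMAD6 were lower in stimulated than in unstimulated spheres of both lines, SMAD2 and SMAD4 were lowest after siSMAD2/3/4, and SMAD1 lay at 24.9 CPM or more in all sphere libraries and at 9.36 CPM or less in all MDA-MB-231 libraries.

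The other members of the TGFβ branch moved little. SMAD2, the second receptor-regulated SMAD of this branch, was at 220, 220 and 221 CPM in unstimulated and at 224, 221 and 234 CPM in stimulated MI-spheres. The MII-spheres had 216, 206 and 213 CPM without and at 204, 217 and 197 CPM with TGFβ. It was not called in either line, with 95% intervals of the log2 fold-change from -0.08 to 0.12 in MI- and from -0.15 to 0.01 in MII-spheres. With 36426 exon bases SMAD2 is the longest gene of the family, and after a correction for gene length it was called higher in both lines, at 0.15 (adjusted p = 0.0355) and 0.13 (adjusted p = 0.00244), which turns its direction in MII-spheres. It was called lower in MII-spheres with a minimum of 10 counts in every library (-0.11, adjusted p = 0.0146) and without MII TGFβ replicate 2 (-0.10, adjusted p = 0.0431). SMAD4 was not called in either line, with means of 77.6 ± 1.93 and 73.8 ± 1.14 CPM in unstimulated and stimulated MI-spheres (SD, n = 3). In MII-spheres its means were 77.5 ± 2.61 and 73.9 ± 2.50 CPM, and both intervals reached no lower than -0.21 on the log2 scale. With the minimum of 10 counts it was called lower in both lines (-0.13 and -0.14, adjusted p = 0.0373 and 0.0158). 

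SMAD7, the inhibitor of TGFβ receptors and a textbook early target of SMAD3 and SMAD4, was not called at this time. It was at 11.99, 11.60 and 11.79 CPM in unstimulated and at 12.78, 11.96 and 13.91 CPM in stimulated MI-spheres. The MII-spheres had 9.03, 9.64 and 10.9 CPM without and at 9.56, 8.50 and 9.35 CPM with TGFβ. The groups overlapped in both lines, and the 95% intervals of the log2 fold-change were -0.10 to 0.31 and -0.38 to 0.10. 

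Among the SMADs of the BMP branch, SMAD5 rose slightly in both lines. It was at 154, 165 and 165 CPM in unstimulated and at 197, 176 and 193 CPM in stimulated MI-spheres (log2 fold-change 0.21, SE 0.054, adjusted p = 0.00303). In MII-spheres it was at 145, 147 and 147 CPM without and at 180, 174 and 170 CPM with TGFβ (log2 fold-change 0.22, SE 0.040, adjusted p = 4.8e-06). In both lines the lowest stimulated library was above the highest unstimulated one. SMAD5 shares 6.748% of its exon bases with SMAD5-AS1 on the opposite strand, and reads of the 2 genes cannot be told apart in counts made without strand.

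SMAD1 was lower in stimulated MI-spheres, at 25.4, 24.9 and 25.4 CPM against 27.4, 31.1 and 28.2 CPM (log2 fold-change -0.22, SE 0.074, adjusted p = 0.0166). This call was lost with DESeq2 (adjusted p = 0.163), without MI Ctrl replicate 2 (-0.15, adjusted p = 0.134) and without MI TGFβ replicate 1 (adjusted p = 0.0559). In MII-spheres SMAD1 was at 27.4, 27.3 and 28.0 CPM without and at 30.3, 32.4 and 29.8 CPM with TGFβ, and was not called (log2 fold-change 0.13, adjusted p = 0.105). 

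SMAD9, the least abundant member per length in both unstimulated lines, was at 7.66, 6.60 and 9.23 CPM in unstimulated and at 6.63, 7.40 and 7.52 CPM in stimulated MI-spheres, which overlapped. In MII-spheres it rose from 3.23, 2.31 and 2.82 to 4.37, 4.66 and 4.78 CPM (log2 fold-change 0.73, SE 0.19, adjusted p = 0.00113). The MII libraries held 48 to 69 counts of SMAD9, which is reflected in the wide interval of 0.34 to 1.11.

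**Figure D2:**
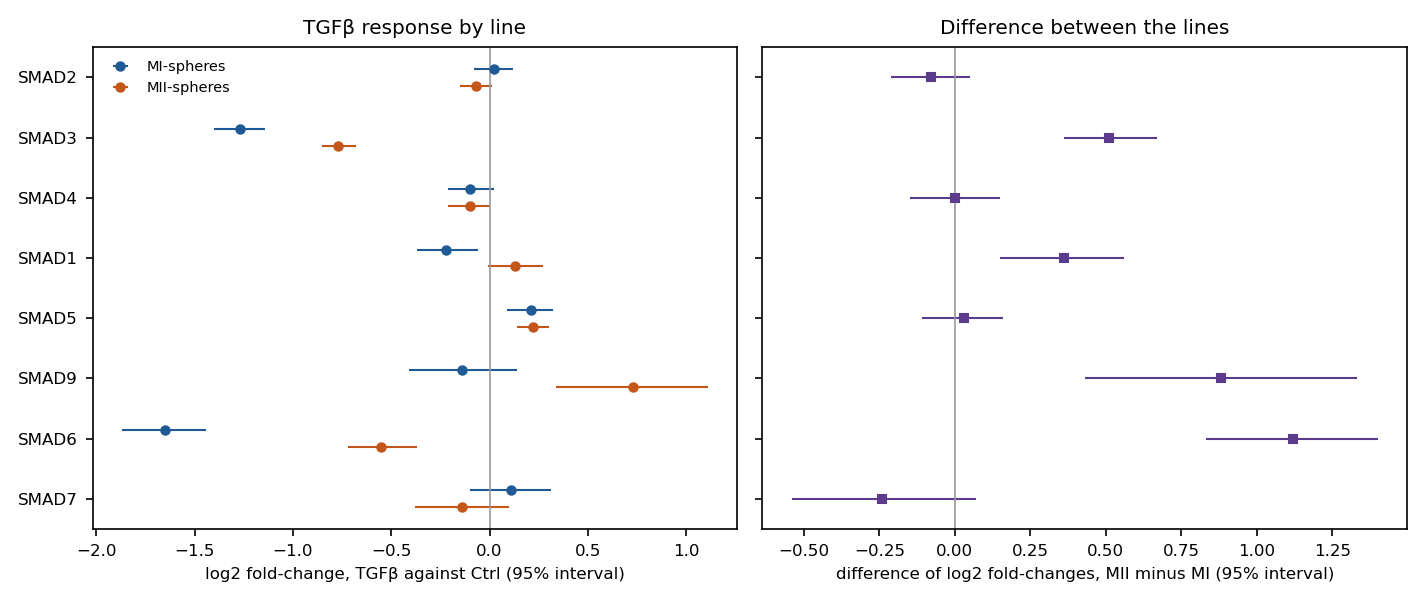
Log2 fold-change of each SMAD gene with TGFβ in MI- and MII-spheres (left) and the difference of the responses, MII minus MI (right), with 95% intervals as bars, from edgeR. SMAD3 and SMAD6 lay below 0 in both lines, and SMAD1, SMAD3, SMAD6 and SMAD9 had differences above 0.

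Whether the response depended on the line was tested as the interaction of line and TGFβ over the 12 sphere libraries. The interaction was called for 4 of the 8 genes, each time positive, where 22.4% of 18591 genes were called in either direction 12.6% positive and 9.75% negative. SMAD6 had the largest difference in the family, 1.12 (SE 0.14, adjusted p = 5.22e-08), followed by SMAD9 at 0.88 (SE 0.22, adjusted p = 0.0029) and SMAD3 at 0.51 (SE 0.076, adjusted p = 1.2e-06). SMAD6 and SMAD3 thus fell more in MI- than in MII-spheres. SMAD1 had an interaction of 0.36 (SE 0.10, adjusted p = 0.00815), which was lost without MI Ctrl replicate 2 (adjusted p = 0.0838) or without MII TGFβ replicate 2 (adjusted p = 0.0632). For SMAD2, SMAD4, SMAD5 and SMAD7 no difference was called, and the 95% intervals were -0.21 to 0.05, -0.15 to 0.15, -0.11 to 0.16 and -0.54 to 0.07.

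The lines also differed before stimulation. In unstimulated MII- against MI-spheres, 2 of the 8 genes were higher and 3 were lower, and 64.2% of 17862 genes were called, 31.7% higher and 32.5% lower. The groups did not overlap for 6 of the 8, against 67.3%. SMAD3 was higher in MII-spheres (172 to 189 against 134 to 148 CPM, log2 fold-change 0.34, SE 0.041, adjusted p = 2e-10), and so was SMAD6 (21.7 to 24.3 against 16.1 to 17.2 CPM, log2 fold-change 0.48, SE 0.077, adjusted p = 2.4e-07). SMAD9 was lower, with 2.31 to 3.23 against 6.60 to 9.23 CPM (log2 fold-change -1.53, SE 0.16, adjusted p = 2.1e-12). None of these ranges overlapped. SMAD5 was lower by a small step of -0.14 (SE 0.039, adjusted p = 0.00125). SMAD2 was not called (-0.06, adjusted p = 0.119), but 3 alternatives called it lower. These were DESeq2 (-0.09, adjusted p = 0.0442), edgeR with no low-count filter (-0.10, adjusted p = 0.0242) and edgeR after the correction for gene length (-0.23, adjusted p = 3.34e-07). SMAD7 was lower by -0.26 (SE 0.10, adjusted p = 0.0201), a call lost with DESeq2 (adjusted p = 0.0829) and without MI Ctrl replicate 1, MII Ctrl replicate 1 or MII Ctrl replicate 2 (adjusted p from 0.0543 to 0.0749). 

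After stimulation, 3 genes were higher and 3 were lower in MII- than in MI-spheres, with 62.7% of 15878 genes called, 31.1% higher and 31.6% lower. The groups did not overlap for 6 of the 8, against 66.5%. SMAD6 was 3.04-fold higher (log2 fold-change 1.61, SE 0.12, adjusted p = 9.59e-11), SMAD3 was 1.82-fold higher (0.86, SE 0.061, adjusted p = 1.96e-11) and SMAD1 was 1.23-fold higher (0.29, SE 0.076, adjusted p = 0.0018). SMAD7 was lower in MII-spheres at -0.49 (SE 0.11, adjusted p = 0.000605) and SMAD9 at -0.64 (SE 0.15, adjusted p = 0.000601). SMAD2 was lower by -0.13 (SE 0.050, adjusted p = 0.0222), which was lost without MII TGFβ replicate 1 (adjusted p = 0.0885) or replicate 3 (adjusted p = 0.128). SMAD4 did not differ by more than 0.12 on the log2 scale at either end of its interval. The 4 sphere comparisons share libraries, so their values stand side by side and are not independent of one another.

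SMAD mRNAs were next set against the MDA-MB-231 line. WT cells and unstimulated MI-spheres differ in line and in culture, monolayer or 3D, and these cannot be told apart. In WT, 4 of the 8 genes were lower and none was higher (none either at an unadjusted p under 0.05 in edgeR), against 54.0% of 18732 genes called, 28.1% higher and 25.9% lower. The groups did not overlap for 6 of the 8, against 67.0%. SMAD1 was at 4.91, 3.31 and 5.79 CPM in WT, 16.1% of the MI level (log2 fold-change -2.63, SE 0.25, adjusted p = 0.00013). SMAD9 was at 1.47, 1.93 and 1.63 CPM (log2 fold-change -2.23, SE 0.25, adjusted p = 0.000248). These are the BMP-branch genes, of which SMAD5 was not called (58.7 to 153 CPM in WT, log2 fold-change -0.45, adjusted p = 0.308).

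SMAD6 was at 5.10, 8.47 and 5.20 CPM in WT and was lower than in MI-spheres (log2 fold-change -1.41, SE 0.25, adjusted p = 0.00245). SMAD2 was at 148, 83.6 and 144 CPM (log2 fold-change -0.83, SE 0.24, adjusted p = 0.023), a call lost when any MI Ctrl library was left out (adjusted p from 0.0696 to 0.0717). WT replicate 2 was the lowest WT library for SMAD1, SMAD2, SMAD4 and SMAD5 and the highest for SMAD3, SMAD6, SMAD7 and SMAD9. Without it, when 74.9% of genes were called, SMAD1 was at -2.47, SMAD9 at -2.37, SMAD6 at -1.72 and SMAD2 at -0.63 (adjusted p = 7.42e-11, 6.4e-08, 5.15e-09 and 5.66e-07), and SMAD4 was called lower too (-0.25, adjusted p = 0.00453). SMAD3 was not called with or without that library, at 163, 257 and 142 CPM.

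In the KO experiment, SNAI2 itself was at 31.1, 21.1 and 33.2 CPM in WT and at 62.4, 57.9 and 63.5 CPM in the libraries labelled SLUG KO. The mRNA was thus higher, not lower, under that label. The guide cut early in exon 1, and the count over all exons does not read the edit itself. SMAD6 was the only SMAD gene called, 1 of 8 lower where 3.33% of 17428 genes were called, 1.45% higher and 1.89% lower. It was at 1.44, 0.962 and 1.56 CPM in libraries labelled SLUG KO, on 21 to 37 counts, which is 21.3% of WT (log2 fold-change -2.23, SE 0.32, adjusted p = 0.0136). The groups did not overlap for SMAD6 and 3 other SMAD genes, 4 of 8, against 31.3% of genes tested. Without WT replicate 2, when 31.2% of genes were called, the value was -1.94 (adjusted p = 1.31e-05). Without any 1 of the KO libraries it lay between -2.35 and -2.02, and the adjusted p rose to between 0.0762 and 0.0926.

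The other SMAD genes were not called with all libraries, and their intervals were wide. SMAD9 was at 1.01, 0.779 and 0.849 CPM in libraries labelled SLUG KO, all below the lowest WT library, with a log2 fold-change of -0.92 (95% interval -1.57 to -0.26, adjusted p = 0.143). SMAD1 was at 5.93, 7.42 and 7.69 CPM, all above WT (0.58, adjusted p = 0.286). SMAD2, at 151, 156 and 155 CPM, was closer between libraries than in WT. SMAD5 was at 113.8, 117.7 and 109.4 CPM, between WT replicate 2 and the other WT libraries, and without that library it was called lower (-0.38, adjusted p = 0.00231). Intervals for SMAD3, SMAD4 and SMAD7 were -0.92 to 0.22, -0.69 to 0.66 and -0.32 to 0.51.

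The knockdown lowered its 3 targets unequally. In Csi, SMAD2 was at 92.4, 91.2 and 88.4 CPM, and in siSMAD2/3/4 at 23.2, 24.2 and 24.2 CPM, or 26.4% of the control (log2 fold-change -1.92, SE 0.052, adjusted p = 2.65e-22). SMAD4 fell from 55.5, 54.2 and 56.6 to 17.8, 15.8 and 16.7 CPM, or 30.3% (-1.72, SE 0.062, adjusted p = 1.5e-19). SMAD3 fell from 276, 264 and 260 to 171, 164 and 160 CPM, which left 61.9% (-0.69, SE 0.041, adjusted p = 9.7e-15). None of the 3 groups of values overlapped with its control, and the 95% interval of SMAD3, -0.77 to -0.61, did not reach those of SMAD2 (-2.03 to -1.82) or SMAD4 (-1.85 to -1.60). SMAD4 shares 7.369% of its exon bases with an annotated gene on the same strand, and over these bases their reads cannot be told apart.

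Counting these targets, 7 of 8 SMAD genes were called, 2 higher and 5 lower, where 36.0% of 17696 genes were called, 16.3% higher and 19.7% lower. The siSMAD2/3/4 and Csi libraries did not overlap in CPM for 8 of the 8 genes, against 44.9% of genes tested. SMAD6 rose from 15.5, 15.3 and 12.7 to 24.4, 27.8 and 25.1 CPM (log2 fold-change 0.83, SE 0.081, adjusted p = 6.99e-10). SMAD7 was at 12.3, 11.1 and 12.6 CPM in Csi and at 14.1, 15.3 and 13.5 CPM after knockdown (0.25, SE 0.086, adjusted p = 0.0201). The inhibitory SMADs were thus both higher, but SMAD7 was not called with DESeq2 (adjusted p = 0.0535), without Csi replicate 2 (adjusted p = 0.11) or without siSMAD2/3/4 replicate 2 (adjusted p = 0.108). 

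SMAD1, not an siRNA target, fell from 8.91, 9.36 and 8.85 to 6.30, 7.09 and 6.54 CPM (-0.45, SE 0.10, adjusted p = 0.000806). SMAD5 fell from 98.44, 106.1 and 98.93 to 89.3, 88.4 and 89.5 CPM (-0.18, SE 0.045, adjusted p = 0.0014). SMAD9, at 1.59 to 1.70 CPM in Csi and 1.84 to 2.10 CPM after knockdown, was not called (0.27, adjusted p = 0.349). File names place siSMAD2/3/4 replicates 1 and 2 on another flow cell than replicate 3 and Csi, although the labels give 1 batch. With replicate 3 alone against Csi, on 1 flow cell, SMAD2 was at -1.89, SMAD4 at -1.72, SMAD3 at -0.72, SMAD6 at 0.81 and SMAD1 at -0.46, all called, the lone library being taken to vary like the Csi libraries. SMAD7 (0.18, adjusted p = 0.372) and SMAD5 (-0.17, adjusted p = 0.0932) were not called there.

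**Figure D3:**
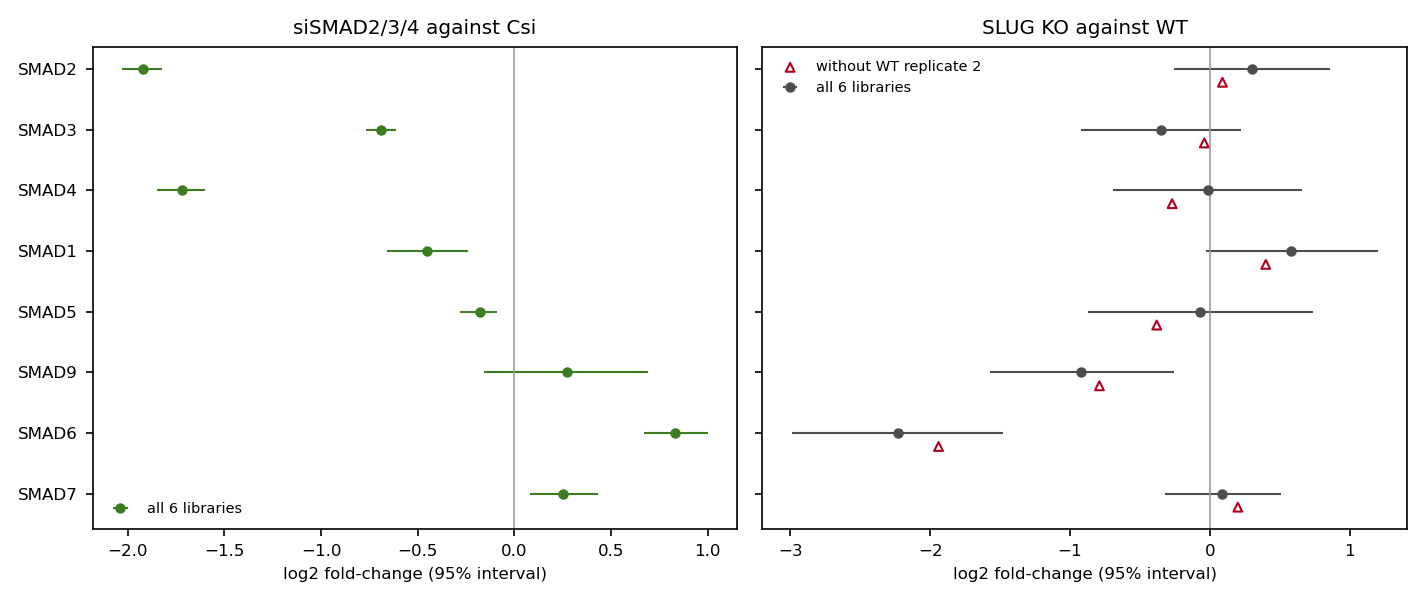
Log2 fold-change of each SMAD gene after siSMAD2/3/4 against Csi (left) and in libraries labelled SLUG KO against WT (right), with 95% intervals as bars, from edgeR on all 6 libraries. Open triangles give the value without WT replicate 2. SMAD2 and SMAD4 fell to -1.92 and -1.72 after knockdown and SMAD3 to -0.69, while SMAD6 lay at 0.83 on the left and at -2.23 on the right.

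Per length, as CPM per kb of exon, SMAD5 and SMAD3 had the highest levels of the family in 7 of the 8 groups, the exception being stimulated MI-spheres, where SMAD2 was above SMAD3. This order rests on the 36426 exon bases taken for SMAD2. A shorter length would raise SMAD2 per kb and can change its rank. In unstimulated MI-spheres SMAD5 was at 17.8, SMAD3 at 14.2, SMAD2 at 6.05, SMAD4 at 5.92, SMAD1 at 4.07, SMAD7 at 2.99, SMAD6 at 1.93 and SMAD9 at 1.34 CPM per kb. After TGFβ SMAD3 was at 6.00 CPM per kb in MI-spheres, near SMAD4 at 5.62 and, by its full exon length, SMAD2 at 6.22. In Csi SMAD3 led the family at 26.7 CPM per kb, ahead of SMAD5 at 11.2. After knockdown it was at 16.5 CPM per kb, still above SMAD2 at 0.656 and SMAD4 at 1.28.

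SMAD3 and SMAD2 together made up 37.3% ± 1.34 of the summed SMAD level per length in unstimulated MI-spheres and 25.8% ± 0.901 in stimulated ones (SD, n = 3). In MII-spheres this share was 43.0% ± 0.680 without and 32.5% ± 0.779 with TGFβ. SMAD1, SMAD5 and SMAD9 together went the other way, from 42.8% ± 1.38 to 54.1% ± 1.14 in MI- and from 37.0% ± 0.619 to 48.1% ± 0.768 in MII-spheres. The inhibitory SMADs held 9.29% ± 0.257 in Csi and 18.3% ± 1.05 after knockdown. A share of a sum rises when its other terms fall, and the summed level of SMAD6 and SMAD7 itself was 4.73 ± 0.166 CPM per kb in Csi and 6.63 ± 0.427 CPM per kb after knockdown. These shares depend on the length taken for SMAD2, whose exons include long alternative ends. With its next-longest coding transcript, 12075 bases, a length chosen after seeing the data, the share of SMAD2 and SMAD3 in unstimulated MI-spheres was 48.8% and exceeded that of the BMP branch, 34.9%, and after TGFβ it was 41.3%.

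**Figure D4:**
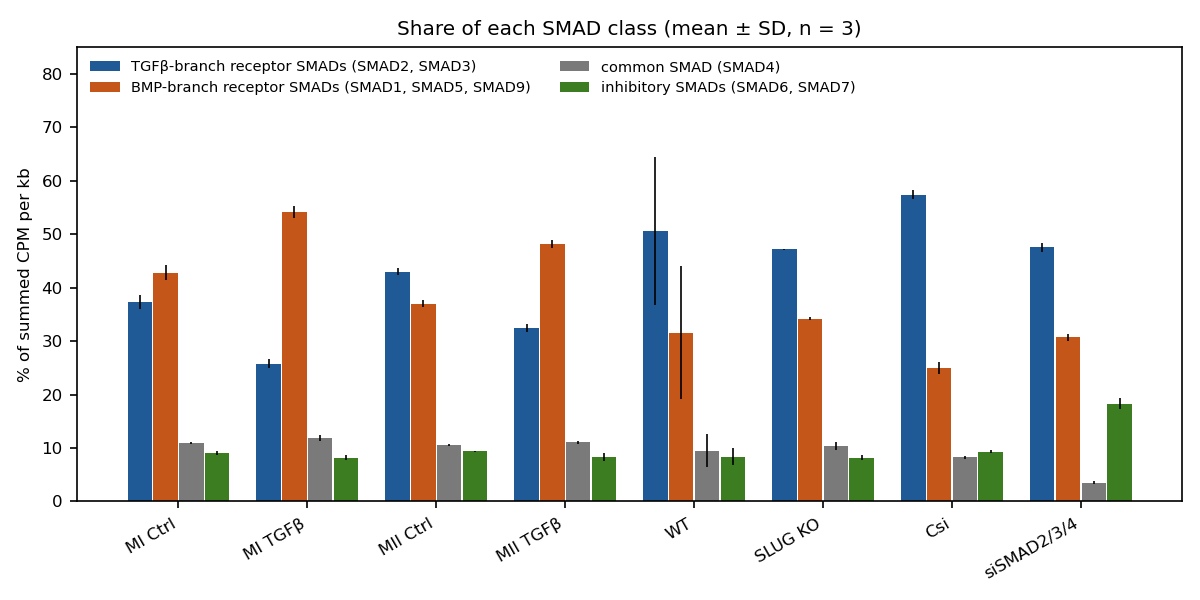
Share of each SMAD class in the summed CPM per kb of exon of the 8 genes (y axis, %, from 0) in each group (bars, mean of 3 libraries; error bars, SD). The share of SMAD2 and SMAD3 was lower with than without TGFβ in both sphere lines, and the large error in WT (50.6% ± 13.9) comes with replicate 2, without which it was 42.6%.

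Across groups, the range of a gene's mean CPM was widest for SMAD6, 19.5-fold from 1.32 CPM in SLUG KO to 25.8 CPM after siSMAD2/3/4, and narrowest for SMAD7, 1.56-fold. For SMAD7 every neighbouring pair in the order of the 8 group means overlapped in its libraries, from 9.14 CPM in stimulated MII-spheres to 14.3 CPM after siSMAD2/3/4. SMAD1 had a gap between the lowest sphere library, 24.9 CPM, and the highest MDA-MB-231 library, 9.36 CPM. SMAD3 was highest in Csi and lowest in stimulated MI-spheres, at 267 and 59.9 CPM, and its neighbours WT and unstimulated MII-spheres overlapped. SMAD2 and SMAD4 had their lowest means after siSMAD2/3/4, and SMAD9 in SLUG KO at 0.881 CPM. The siRNA groups were sequenced in another batch by their labels, so their place in these orders cannot be told apart from that batch.

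Over the 18 libraries of the other batch, the protein-coding genes whose log2(CPM + 1) followed each SMAD gene most closely were found among 12773 genes. They were LRATD2 and LY75 for SMAD1 (Pearson's r = 0.995 for both), TVP23B (0.993) and MFF (0.991) for SMAD2, and OSGIN1 (0.943) and AZIN2 (0.939) for SMAD3. For SMAD4 they were PPM1B (0.977) and CRIPT (0.975), for SMAD5 LSM14A (0.985) and MYCBP (0.983), and for SMAD6 CSRNP2 (0.974) and ABCC5 (0.959). SMAD7 had the least close partners, ACBD6 (0.906) and CCDC153 (0.895), and SMAD9 had FAM83A (0.978) and MYB (0.976). Within the family, SMAD2 and SMAD4 had r = 0.920 and SMAD4 and SMAD5 r = 0.914, while SMAD2 and SMAD3 had r = -0.573. The points are libraries of 3 lines in 6 groups that share replicates, line and, for WT replicate 2, a library that stood apart, so these values describe the groups and carry no test.

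The receptors that phosphorylate SMADs, and their partner receptors, were followed next. Of 12 type I and type II receptor genes 10 were tested in spheres, and with TGFβ 4 were higher and 3 lower in MI-spheres (median log2 fold-change 0.16, against -0.016 over all genes tested, of which 56.0% were called). In MII-spheres 6 were higher and 2 lower (median 0.22, against -0.018 and 57.6% called). TGFBR1 and TGFBR2, the TGFβ receptors, rose in both lines, TGFBR1 from 61.4 ± 1.46 to 83.7 ± 5.49 CPM in MI- and from 68.1 ± 3.34 to 87.6 ± 5.25 CPM in MII-spheres (adjusted p = 3.81e-06 and 3.52e-07). TGFBR2 rose from 62.2 ± 1.54 to 84.1 ± 3.10 CPM and from 157 ± 3.50 to 204 ± 4.44 CPM (adjusted p = 3.13e-06 and 1.28e-10). BMPR1B, a BMP receptor, fell from 38.9 ± 2.88 to 18.3 ± 1.65 CPM in MI-spheres (log2 fold-change -1.10, adjusted p = 3.09e-10), and its interaction was 1.29 (adjusted p = 2.01e-12). ACVR2A, an activin and BMP receptor, fell in MI-spheres as well (-0.50, adjusted p = 5.15e-07). ACVR1C, a type I receptor for nodal and activin, rose from 0.824 ± 0.218 to 2.50 ± 0.511 CPM in MI- and from 1.39 ± 0.232 to 4.14 ± 0.859 CPM in MII-spheres (adjusted p = 6.82e-05 and 1.23e-07).

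Between the unstimulated lines, 5 of 10 receptors were higher and 1 was lower in MII-spheres, near the 64.2% of all genes called. TGFBR2 was higher by 1.33 (SE 0.043, adjusted p = 3.04e-33), ACVR2B by 0.90 and ACVR1 by 0.76, and BMPR1B was lower by -0.49 (adjusted p = 2.2e-09). In WT MDA-MB-231 cells against MI-spheres 3 were higher and 3 lower (54.0% of all genes called), with TGFBR1 at 201 ± 57.0 CPM (1.70, adjusted p = 0.000866) and BMPR1B at 1.49 ± 0.0821 CPM (-4.71, adjusted p = 5e-06). Without WT replicate 2, TGFBR1 was at 1.89 and BMPR1B at -4.70, with 4 receptors higher and 3 lower (74.9% of all genes called). BMPR1B was the receptor called in the SLUG KO comparison, 1 of 9 tested where 3.33% of all genes were called, lower at 0.0149 ± 0.0258 CPM. Without WT replicate 2, BMPR1B was at -6.28 there, and 3 of 10 were higher and 3 lower, where 31.2% of all genes were called. After siSMAD2/3/4, with 36.0% of all genes called, 2 receptors were higher and 2 lower, TGFBR1 at -0.33 (adjusted p = 1.1e-07), TGFBR2 at -0.36 (adjusted p = 3.11e-09), BMPR2 at 0.24 (adjusted p = 4.91e-06) and ACVR1 at 0.20 (adjusted p = 0.0129).

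Of 7 genes for anchoring and nuclear transport of SMADs, 4 were higher and none was called lower with TGFβ in MI-spheres (median 0.16), and 3 were higher and 1 lower in MII-spheres (median 0.11). The number called, 4 in each line, is near the share over all genes, 56.0% and 57.6%. The importin IPO7 rose from 361 ± 5.98 to 450 ± 27.5 CPM in MI- and from 293 ± 6.07 to 351 ± 6.09 CPM in MII-spheres (adjusted p = 6.71e-05 and 1.88e-07). The exportin XPO1 rose by 0.20 and 0.37 (adjusted p = 0.00281 and 1.79e-11), XPO4, an exporter of SMAD3, by 0.26 in MI-spheres (adjusted p = 0.00133), and ZFYVE9, the anchor SARA, by 0.16 (adjusted p = 0.0293). In unstimulated MII- against MI-spheres 1 was higher and 5 were lower (median -0.31, with 64.2% of all genes called), among them IPO8 at -0.53 (adjusted p = 7.77e-13) and XPO1 at -0.47 (adjusted p = 1.05e-15). After siSMAD2/3/4, with 36.0% of all genes called, 1 was higher and 3 were lower, XPO4 at -0.43 (adjusted p = 4.77e-08), IPO8 at -0.28 and XPO1 at -0.26. None of the 7 was called in the SLUG KO comparison with all libraries (3.33% of all genes called), and 3 were lower without WT replicate 2 (31.2%).

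Ubiquitin ligases and deubiquitinases that act on SMADs or their receptors numbered 14, all tested. With TGFβ 2 were higher and 7 lower in MI-spheres (median -0.13), and 4 were higher and 4 lower in MII-spheres (median -0.038), near the 56.0% and 57.6% of all genes called. NEDD4L, a ligase for phosphorylated SMAD2 and SMAD3, fell from 150 ± 2.24 to 70.1 ± 4.47 CPM in MI-spheres (log2 fold-change -1.12, SE 0.057, adjusted p = 6.91e-13) and from 173 ± 5.65 to 146 ± 5.31 CPM in MII-spheres (-0.28, SE 0.041, adjusted p = 1.03e-07). Its interaction was 0.86 (SE 0.071, adjusted p = 2.32e-12). The deubiquitinase USP4 was lower in both lines (-0.44 and -0.34, adjusted p = 0.000159 and 0.000137). SMURF1, a ligase for SMAD1 and SMAD5, was higher in unstimulated MII- than MI-spheres (0.71, adjusted p = 1.72e-19) and after siSMAD2/3/4 (0.38, adjusted p = 2.21e-07). SMURF2 was at 438 ± 115 CPM in WT MDA-MB-231 against 41.6 ± 2.06 CPM in MI-spheres (3.39, SE 0.25, adjusted p = 4.12e-05), and the difference was 3.56 without WT replicate 2. After siSMAD2/3/4, where 36.0% of all genes were called, 7 of the 14 were higher and 3 lower (median 0.11), with USP11 at 0.31 and UCHL5 at -0.31 (adjusted p = 2.05e-06 and 2.18e-05). None of the 14 was called in the SLUG KO comparison with all libraries (3.33% of all genes called). Without WT replicate 2, 4 were higher and 2 lower there (31.2% of all genes called).

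The corepressors, coactivators, phosphatases and pathway inhibitors included genes that moved by more than most SMADs. Of 13 genes tested, 4 were higher and 5 lower with TGFβ in MI-spheres, and of 12 tested 2 were higher and 5 lower in MII-spheres (medians -0.046 and -0.084, with 56.0% and 57.6% of all genes called). PMEPA1, which sequesters receptor-regulated SMADs, rose from 79.9 ± 2.43 to 221 ± 5.52 CPM in MI-spheres (1.44, adjusted p = 2.27e-15). In MII-spheres it was at 357 ± 8.69 CPM without and at 433 ± 12.2 CPM with TGFβ (0.24, adjusted p = 4.6e-08), and its interaction was -1.19 (adjusted p = 9.27e-18). SKIL, the corepressor SnoN, rose in MI-spheres (0.60, adjusted p = 1.48e-08), with an interaction of -0.51 (adjusted p = 3.68e-07). BAMBI, a decoy receptor, fell in MI-spheres from 23.4 ± 0.601 to 7.86 ± 0.591 CPM (-1.60, adjusted p = 5.44e-12), with an interaction of 1.70 (adjusted p = 1.33e-14). The coactivators CREBBP and EP300 fell in both lines, CREBBP by 0.53 and 0.47 and EP300 by 0.37 and 0.30 on the log2 scale (adjusted p = 0.000128, 2.15e-08, 9.49e-05 and 1.19e-05). After siSMAD2/3/4, where 36.0% of all genes were called, 8 of 13 tested were higher and 1 was lower (median 0.18), with SKIL at 0.68 (adjusted p = 7.55e-11) and BAMBI at 0.52 (adjusted p = 7.65e-06). In libraries labelled SLUG KO, with 3.33% of all genes called, TGIF1 was higher and PMEPA1 lower (0.93 and -1.05, adjusted p = 0.0449 and 0.0465). Without WT replicate 2 they were at 0.81 and -0.84 (adjusted p = 4.55e-06 and 1.48e-05), and 2 of 12 were higher and 4 lower, where 31.2% of all genes were called.

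Textbook targets of SMAD3 and SMAD4 changed in both directions with TGFβ. Of 9 genes 8 were tested, CDKN2B having no counts in the groups compared with TGFβ or siSMAD2/3/4. With TGFβ 4 were higher and 2 lower in MI-spheres (median 0.55, against -0.016 over all genes tested), and 3 were higher and 4 lower in MII-spheres (median -0.30, against -0.018). Of all genes tested, 56.0% were called in MI- and 57.6% in MII-spheres. KLF10, a TGFβ-inducible zinc finger factor, rose from 48.8 ± 2.98 to 91.2 ± 5.88 CPM in MI-spheres (0.88, adjusted p = 2.38e-10) and by 0.55 on the log2 scale in MII-spheres (SE 0.051, adjusted p = 1.88e-13). TGFBI, an extracellular matrix gene, rose in both (1.39 and 0.84, adjusted p = 1.77e-15 and 2.73e-26). The fibronectin gene FN1 rose in MI-spheres (2.16, SE 0.063, adjusted p = 7.01e-17) and was not called in MII-spheres (0.09, adjusted p = 0.061). Its interaction was -2.06 (adjusted p = 2.31e-22). In the interaction 7 of the 8 tested were lower and none was called higher (median -0.69), where 22.4% of all genes were called. SNAI1, the EMT factor SNAIL, was lower in both lines at 16 h (-2.22 and -2.53, adjusted p = 6.44e-13 and 1.12e-22). After siSMAD2/3/4, with 36.0% of all genes called, 2 were higher and 3 lower (median 0.039). Among the lower were CCN2 at -0.61 (adjusted p = 4.49e-13) and LTBP2 at -0.17 (adjusted p = 0.00892). The higher were COL1A1 at 0.77 (adjusted p = 1.86e-10) and FN1 at 0.25 (adjusted p = 1.08e-05). In libraries labelled SLUG KO, where 3.33% of all genes were called, FN1 (-3.17, adjusted p = 0.00182), TGFBI (-1.16, adjusted p = 0.0103) and CCN2 (-0.99, adjusted p = 0.0297) were the 3 called, all lower. Without WT replicate 2 they were at -2.95, -1.09 and -0.86, and 2 of 8 were higher and 4 lower, where 31.2% of all genes were called.

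Textbook targets of SMAD1 and SMAD5 numbered 7. In MI-spheres 2 were higher and 5 lower with TGFβ (median -0.25), and in MII-spheres none was called higher and 4 were lower (median -0.43). Of all genes tested, 56.0% were called in MI- and 57.6% in MII-spheres, and the number called in MII-spheres is near that share. ID1, ID2 and ID3 encode inhibitors of basic helix-loop-helix factors. ID2 fell from 146 ± 8.47 to 70.1 ± 4.05 CPM in MI- and from 83.3 ± 0.795 to 58.6 ± 0.0467 CPM in MII-spheres (adjusted p = 2.57e-12 and 5.14e-13), and ID1 fell by 0.25 and 0.43 on the log2 scale (adjusted p = 0.0023 and 2.38e-12). ATOH8 fell to 0.452 ± 0.486 CPM in MI-spheres and 0.937 ± 0.452 CPM in MII-spheres (adjusted p = 1.29e-08 and 9.61e-08). In WT MDA-MB-231 against MI-spheres none was called higher and 6 were lower, with a median of -4.4 against 0.059 over all genes, of which 54.0% were called. ID1 was at 42.6 against 891 CPM there (log2 fold-change -4.40, SE 0.27) and ID2 at 0.774 ± 0.0192 against 146 ± 8.47 CPM (adjusted p = 1.81e-05 and 2.71e-06). After siSMAD2/3/4, with 36.0% of all genes called, 4 of 6 tested were higher and none was called lower (median 0.50, against 0.0038). They were ID1 at 0.47 (adjusted p = 5.77e-09), ID3 at 0.52 (adjusted p = 2.74e-06), ID2 at 0.55 (adjusted p = 0.0205) and ATOH8 at 0.98 (adjusted p = 6.66e-10). In WT against MI-spheres without WT replicate 2, where 74.9% of all genes were called, ID1 and ID2 were at -4.64 and -7.56. None of the 5 tested was called in the SLUG KO comparison with all libraries (3.33% of all genes called). Without WT replicate 2, 2 were higher and 2 lower there (31.2% of all genes called).

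**Figure D5:**
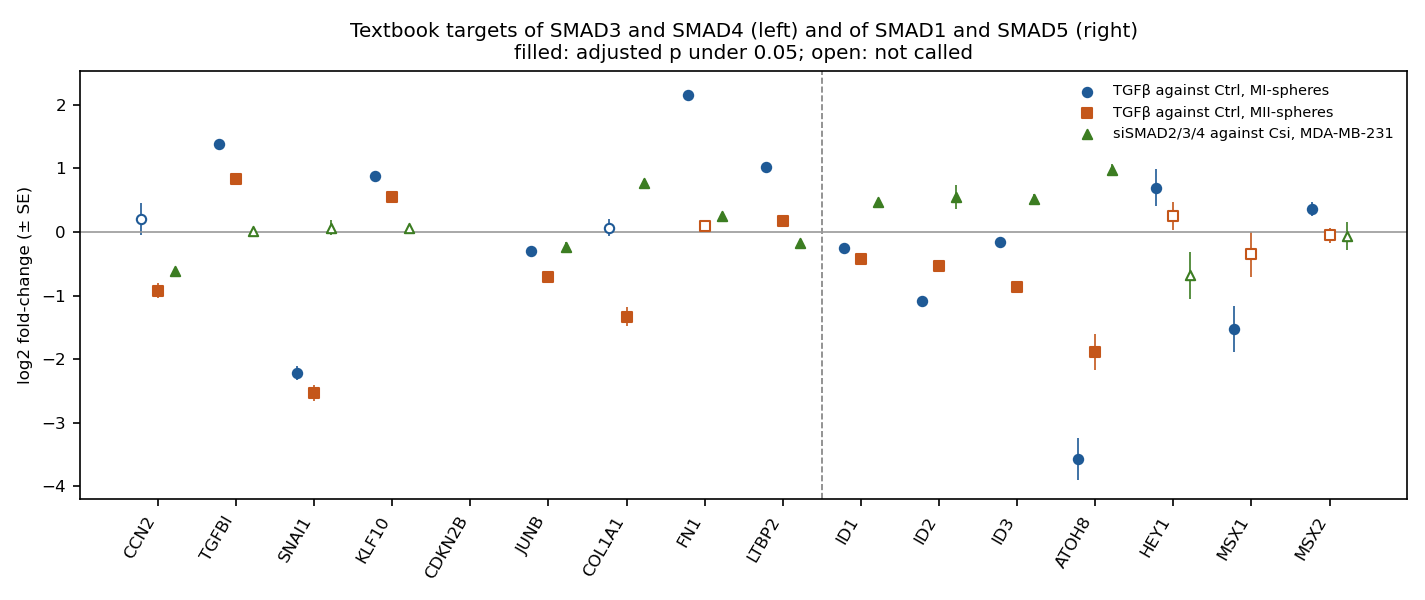
Log2 fold-change (y axis, with SE) of textbook targets of SMAD3 and SMAD4 (left of the dashed line) and of SMAD1 and SMAD5 (right) with TGFβ in MI- and MII-spheres and after siSMAD2/3/4 in MDA-MB-231. Filled symbols passed an adjusted p under 0.05 in edgeR. TGFBI and KLF10 lay above 0 with TGFβ in both lines, and ID1, ID2, ID3 and ATOH8 lay below 0 with TGFβ and above 0 after knockdown.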

How the data were processed

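Total RNA depleted of ribosomal RNA was sequenced from 24 libraries in 8 groups. After trimming with Trimmomatic and two-pass STAR alignment on GRCh38, the authors deposited raw counts of fragments per gene, made with featureCounts (Subread 2.0.0) on GENCODE exons from pairs with a mapping quality of at least 30, without strand. Strand therefore does not separate reads of a gene from those of an antisense neighbour over shared exon bases. Gene IDs were named from a later GENCODE release.

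Counts were tested in R 4.3.3 with edgeR 4.0.16 (TMM, filterByExpr, quasi-likelihood F-test, Benjamini-Hochberg), on the 6 libraries of each comparison or on all 12 sphere libraries for the interaction. The steps were tested on simulated data. CPM used TMM factors computed within each experiment, and a median shift between CPM and fitted fold-changes was at most 0.033 (log2). Same-numbered libraries deviated together with r from -0.27 to 0.123, so the fits have no block.

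Alternatives were DESeq2 1.42.0, its size factors, other count filters, a gene-length trend, a replicate block and leaving out each library. For pathway genes, leaving out WT replicate 2 was added after seeing the data. Members and lists were chosen with earlier results of these data known. Named pathway genes were taken, per list and comparison, from up to 4 with the smallest adjusted p among called genes whose CPM did not overlap. Not every gene that met this rule is named in the text, among them JUNB, ID3 with TGFβ, and TGIF2. Where such a gene is named, its values in other comparisons may be given too. A gene of the SMAD3 and SMAD4 target list is not reported here and was left out of its counts and medians. CDKN2B was named outside this rule, after its values were seen. ATAC-seq samples were not analysed here. P-values measure the spread between the libraries, which may in part be technical. Promoters and their build, GRCh38.p14, are from RefSeq.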

Additional observations from a re-analysis of the deposited data

Results flagged for a closer look

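The response to TGFβ differed between the sphere lines for 4 SMAD genes, by the interaction of line and TGFβ in edgeR over 12 libraries. MII minus MI, the difference in log2 fold-change was 1.12 for SMAD6 (SE 0.14, adjusted p = 5.22e-08), 0.88 for SMAD9 (SE 0.22, adjusted p = 0.0029), 0.51 for SMAD3 (SE 0.076, adjusted p = 1.2e-06) and 0.36 for SMAD1 (SE 0.10, adjusted p = 0.00815). For SMAD1 it was lost without MI Ctrl replicate 2 (adjusted p = 0.0838) or MII TGFβ replicate 2 (adjusted p = 0.0632). Each group had 3 libraries, too few for a test of single outlying libraries.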

How the results depend on the processing

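Of 864 values of single SMAD genes under the alternatives, 802 kept their direction (at 2 decimals) and their side of the threshold, 24 lost and 14 gained a call, and 24 changed sign. Of these sign changes SMAD2 with TGFβ in MII-spheres, at 0.13 after the gene-length trend, was called. The others were called in neither fit, namely SMAD2 in MI-spheres at -0.02 with at least 10 counts, SMAD4 between the stimulated lines at -0.01, -0.02, -0.03 and -0.08, SMAD5 in the interaction at -0.01, -0.02, -0.03 and -0.07, and in SLUG KO SMAD4 at 0.03, 0.04, 0.05, 0.07, 0.14 and 0.18 and SMAD5 at 0.05, 0.12 and 0.16. With single libraries left out, SMAD4 between the stimulated lines ranged from -0.02 to 0.02, and in SLUG KO SMAD4 from -0.27 to 0.18 and SMAD5 from -0.38 (called, without WT replicate 2) to 0.16. Leaving out a library gave 3 to 4 called SMAD genes for TGFβ in MI-spheres, 4 to 5 in MII-spheres, 4 to 5 between the unstimulated lines, 5 to 7 between the stimulated lines, 3 to 4 for the interaction, 3 to 5 for WT against MI-spheres and 6 to 7 for siSMAD2/3/4. For SLUG KO it gave 0 to 2. Counts there were 0 without SLUG KO replicate 1, 2 or 3, and 2 without WT replicate 2, where 31.2% of all genes were called. With all libraries 3.33% of all genes were called there. Without WT replicate 2, WT against MI-spheres had 74.9% of all genes called, against 54.0% with all libraries. The share of all genes called thus moved with the setting as well, and the numbers of SMAD genes alone do not show a change particular to the family. The other settings gave 3 to 5, 4 to 6, 5 to 6, 6 to 7, 4, 4, 5 to 7 and, for SLUG KO, 0 to 1. The replicate block left 0 SMAD genes called for SLUG KO, where SMAD6 was at -2.21 (adjusted p = 0.0502), and did not change the number called in any other comparison. Same-numbered libraries share only a number. SMAD9 in MDA-MB-231, on as few as 17 counts, is the member that depth limits most.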
